A study of Mus musculus with 9 samples.

Results

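The endoplasmic reticulum (ER) keeps a set of chaperones and folding enzymes, and the unfolded protein response (UPR) adjusts their supply through the transcription factors XBP1 and ATF6. Here 10 genes of this response, apart from its PERK branch, were followed by name in cells sorted as retinal ganglion cells (RGCs). They are Hspa5, Hsp90b1, Calr, Dnajb9, Sdf2l1, Pdia4, Herpud1, Manf, Xbp1 and Atf6, and all 10 were found among the 15228 genes of the deposited expression table. All 10 also passed the filter of a mean of at least 0.5 RPKM (the number of reads scaled by exon length and by library total), which left 13566 genes for testing. Cells sorted as RGCs were taken from wild-type C57BL/6J mice that were 6 to 8 weeks old at surgery. The Ctrl group was uninjured, and the ONC group had its optic nerve crushed and received PBS as vehicle. The TPEN group had the same crush and received TPEN, a membrane-permeable zinc chelator, at 100 μM. Vehicle and TPEN were given by injection into the eye. No injection is stated for Ctrl, so crush and injection cannot be told apart in ONC/Ctrl and TPEN/Ctrl. Both crushed groups were collected 3 d after injury, and each group had 3 libraries made from total RNA with a stranded mRNA kit. Cells were gated by flow cytometry for CD90.2 (Thy1) and against other surface antigens. Whether libraries of the same group stem from different animals is not given in the sources used here, so p-values measure the spread between libraries, which may be technical.

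When misfolded proteins fill the ER, HSPA5 is drawn away from the 3 membrane sensors of the response, IRE1, PERK and ATF6. IRE1 splices Xbp1 mRNA so that it encodes an active transcription factor, and ATF6 is cut in the Golgi to release its own. Both factors bind ER stress response elements near the start of chaperone genes and raise their transcription, which makes Hspa5, Hsp90b1, Dnajb9, Sdf2l1, Herpud1, Pdia4, Manf and Calr common readouts of the response. PERK acts through translation and ATF4 and has other targets, such as Ddit3. Splicing of Xbp1, cleavage of ATF6 and protein levels cannot be seen in gene-level read numbers, so the values below are levels of mRNA of whole genes.

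The stretches that follow show the elements through which this response reaches the genes, since such elements are part of how targets of XBP1 and ATF6 are recognized. The genes were picked as known targets, so finding the elements in them is no independent result. The element called ERSE was searched as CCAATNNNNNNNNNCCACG, the second form ERSE-II as ATTGGNCCACG, the UPR element as TGACGTGG and the last 5 bases of ERSE alone as CCACG, on both strands. Windows ran from 250 bases before to 50 bases after the RefSeq start of each gene (GRCm38.p6), and 8 of the 10 genes were in that table, all but Manf and Atf6. Capitals mark the full elements, and in Sdf2l1 the CCACG alone, which reads as CGTGG where it lies on the strand opposite to the gene.
Hspa5 (chr2:34772020-34772048, plus strand): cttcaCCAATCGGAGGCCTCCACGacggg
Hsp90b1 (chr10:86705510-86705681, minus strand): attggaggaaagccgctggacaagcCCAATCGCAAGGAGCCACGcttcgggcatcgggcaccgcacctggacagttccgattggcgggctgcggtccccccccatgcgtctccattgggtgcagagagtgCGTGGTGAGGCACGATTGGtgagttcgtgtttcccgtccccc
Calr (chr8:84847050-84847118, minus strand): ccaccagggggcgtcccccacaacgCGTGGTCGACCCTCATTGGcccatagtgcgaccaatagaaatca
Herpud1 (chr8:94386352-94386412, plus strand): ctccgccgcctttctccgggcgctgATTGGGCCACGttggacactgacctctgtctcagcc
Sdf2l1 (chr16:17132384-17132615, minus strand): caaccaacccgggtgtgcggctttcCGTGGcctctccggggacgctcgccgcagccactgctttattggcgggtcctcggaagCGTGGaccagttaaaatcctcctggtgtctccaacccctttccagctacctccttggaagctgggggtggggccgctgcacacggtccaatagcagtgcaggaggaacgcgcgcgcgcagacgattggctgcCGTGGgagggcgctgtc

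ERSE was found in 3 of the 8 windows and ERSE-II in 1, so that 4 of 8 held a full element, against 0.155% of the 32851 RefSeq promoters. ERSE alone was in 0.119% of them and ERSE-II in 0.0365%. In Hspa5 the element began 65 bases before the start and lay on the strand of the gene. Hsp90b1 held 2 elements, one beginning 212 bases before the start on the strand of the gene and the other 107 bases before it on the opposite strand. The element of Calr began 162 bases before the start on the opposite strand, and the ERSE-II of Herpud1 began 52 bases before it. The UPR element was in 0 of the 8 windows and in 0.676% of all promoters. CCACG, which also lies inside the full elements, was in 7 of the 8, all but Xbp1, against 32.8% of all promoters. Sdf2l1 held it at 3 places, Dnajb9 at 2 and Pdia4 at 1, with no full element in these windows. The RefSeq start lay 120 bases inside the gene model of the table for Hspa5, 65 bases inside it for Hsp90b1 and 82 bases outside it for Pdia4. A match of letters is a description and not a sign that a factor was bound in these cells.

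**Figure D1:**
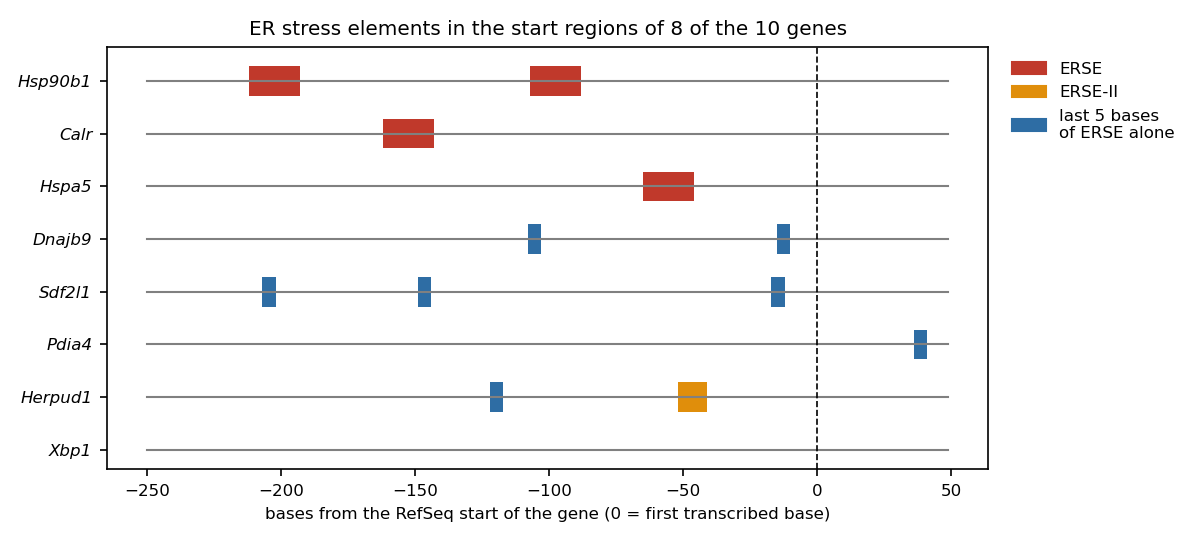
Position of each element relative to the RefSeq start of the gene (x axis, bases) in the 8 genes with a window. Red bars are ERSE, the orange bar is ERSE-II and blue bars are CCACG outside a full element. Hsp90b1 holds 2 full elements, Calr, Hspa5 and Herpud1 hold 1 each, and Xbp1 holds none of the letters searched.

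The 10 genes differed far more in level from each other than any of them did between groups. On the RPKM scale, which is per length of exon, Hsp90b1 had a mean of 424 over the 9 libraries (rank 71 of 15228 genes) and Calr one of 352 (rank 95). Pdia4 followed at 86.3 RPKM (rank 473) and Hspa5 at 52.3 RPKM (rank 836). Manf (13.6 RPKM), Xbp1 (11.2 RPKM), Atf6 (7.30 RPKM), Dnajb9 (6.45 RPKM) and Herpud1 (3.87 RPKM) were of middle rank, and Sdf2l1 was the lowest at 1.99 RPKM (rank 10162). Every gene in this order was above the next in all 9 libraries, so no 2 neighbours overlapped within a library. Together the 10 genes took 0.316% to 0.342% of the reads of a library, and without Hsp90b1 and Calr they took 0.0570% to 0.0668%. The depth behind these values differed as widely. Sdf2l1 had 25 to 74 reads in a library and Herpud1 151 to 241, whereas Hspa5 had 4181 to 5599 and Hsp90b1 33232 to 40126.

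In ONC/Ctrl, limma called 3 of the 10 genes higher at an adjusted p under 0.05, namely Hspa5, Calr and Sdf2l1, while 11.7% of all genes tested were called higher. It called 0 lower, against 6.97% of all genes. In the lower direction 0 of the 10 had an unadjusted p under 0.05, and limma's voom on whole reads called 1. Voom called 1624 of all 13566 genes lower there. Sdf2l1 was the 1 gene of the 10 that was also changed by at least 1.5-fold, and 5.34% of all genes met that rule in either direction. The groups did not overlap in 5 of the 10 genes, all higher in ONC, as they did not in 20.7% of all genes in that direction. The median log2 fold change of the 10 was 0.15, and that of all genes 0.02. Of the genes called in either direction, 62.7% were higher, a share that quantile normalization between libraries put at 46.9% and voom at 50.3%. For 9 of the 10 genes, all but Sdf2l1, the 95% interval of the log2 fold change lay between -0.34 and 0.55, inside the 0.58 that stands for a 1.5-fold change. In such bulk libraries, more or fewer cells of a type and more or less RNA per cell cannot be told apart.

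In TPEN/ONC, 2 of the 10 genes were called lower, Hspa5 and Xbp1, where 4.14% of all genes were. Higher were 0 of the 10 by limma, against 3.24% of all genes, with 1 at an unadjusted p under 0.05 and 1 called by voom, in both cases Hsp90b1. Voom called 825 of all 13566 genes higher there. None of the 10 passed with a 1.5-fold change, a rule that 2.03% of all genes met. Groups did not overlap in 7 of the 10 genes, with 6 of them lower in TPEN and 1 higher. Among all genes, 15.6% were lower and 12.5% higher without overlap. The median log2 fold change was -0.12 for the 10 genes and -0.01 for all genes. Higher genes were 43.9% of all calls and 53.9% after quantile normalization. The ONC libraries enter this comparison and ONC/Ctrl alike, and values for the 2 are therefore given side by side.

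In TPEN/Ctrl, Calr was the 1 gene of the 10 called higher, against 8.36% of all genes. Lower were 0 of the 10 by limma, while 5.01% of all genes were, and 1 of the 10, Atf6, had an unadjusted p under 0.05 and was called by voom. Voom called 1084 of all 13566 genes lower there. A call with a fold change of at least 1.5 was made for 3.91% of all genes and for none of the 10. The median log2 fold change of the 10 was 0.05 and that of all genes 0.01. The higher share of calls was 62.5%, and 52.0% after quantile normalization.

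**Figure D2:**
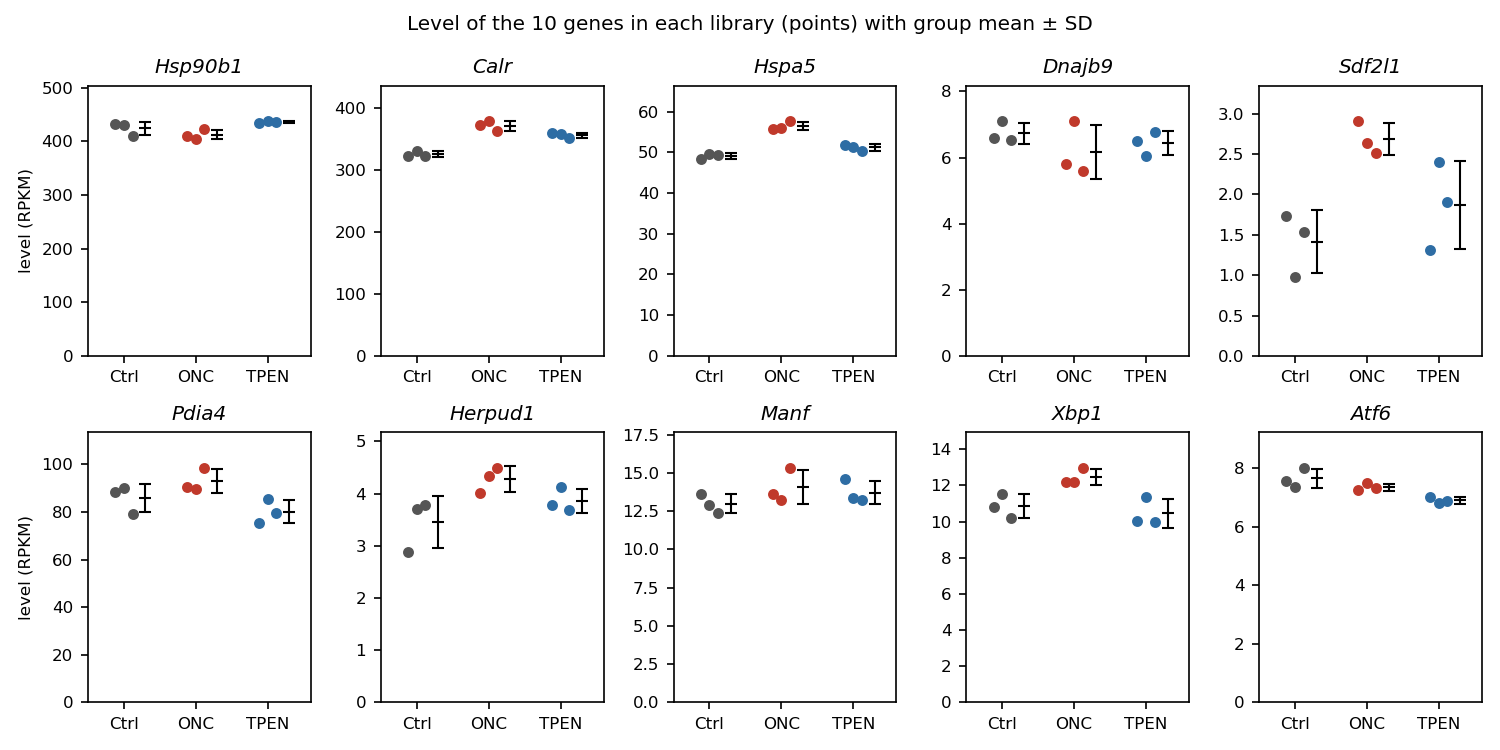
Level of each gene in RPKM (y axis, from 0) in the 3 Ctrl, 3 ONC and 3 TPEN libraries (points), with the mean and SD of each group beside them. Hspa5 and Calr were higher in each ONC library than in any Ctrl library by a small margin, and Sdf2l1 had the widest spread relative to its mean within Ctrl and TPEN.

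Hspa5 (also called BiP or GRP78) is the main chaperone of the ER and the brake on its stress sensors. The gene lies on chromosome 2 (34771970 to 34777547, GRCm38, plus strand). Its level was 48.4, 49.7 and 49.2 RPKM in Ctrl, 55.7, 56.0 and 57.6 RPKM in ONC and 51.9, 51.4 and 50.4 RPKM in TPEN. All 3 ONC libraries were above the other 6, and the TPEN libraries lay between the other groups without touching either. The mean in ONC/Ctrl rose by 14.9% from 49.1 ± 0.660 to 56.4 ± 1.06 RPKM (SD, n = 3), which is 0.20 ± 0.03 (SE) as a log2 fold change, with a limma adjusted p of 7.9e-04. It fell in TPEN/ONC to 51.2 ± 0.773 RPKM, a log2 fold change of -0.14 (limma adjusted p = 0.0158). That call was lost without ONC replicate 2 (limma adjusted p = 0.0510), ONC replicate 3 (0.0609) or TPEN replicate 3 (0.0649), whereas the call in ONC/Ctrl was kept without any single library. TPEN/Ctrl gave a log2 fold change of 0.06 (limma adjusted p = 0.199), with a 95% interval from -0.0020 to 0.12.

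Calr encodes calreticulin, a calcium-binding lectin chaperone for glycoproteins, and lies on chromosome 8 (84841850 to 84846934, minus strand). In Ctrl its level was 324, 331 and 324 RPKM, in ONC 373, 379 and 363 RPKM, and in TPEN 360, 358 and 352 RPKM. The 3 groups did not overlap, and TPEN lay nearer to ONC than to Ctrl. In ONC/Ctrl the mean rose by 14.0%, which is 0.19 ± 0.02 (SE) as a log2 fold change, with a limma adjusted p of 4.4e-04. It stayed 9.39% above Ctrl in TPEN, a log2 fold change of 0.13 (limma adjusted p = 0.00624). Both calls were kept without any single library. The difference TPEN/ONC, a log2 fold change of -0.06, did not pass (limma adjusted p = 0.177).

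Hsp90b1 encodes GRP94, the HSP90 chaperone of the ER, and has the 2 full elements printed above. It lies on chromosome 10 (86690209 to 86705509, minus strand). Its level was 431, 431 and 411 RPKM in Ctrl, 410, 405 and 423 RPKM in ONC and 435, 437 and 436 RPKM in TPEN. Ctrl and ONC overlapped, and all TPEN libraries were above all others. The log2 fold change was -0.04 in ONC/Ctrl (limma adjusted p = 0.353), and its 95% interval, -0.10 to 0.02, ended below the 0.20 of Hspa5. Voom, which also rescaled the library totals, called it lower there (log2 fold change -0.07, adjusted p = 0.0103), and without Ctrl replicate 3 limma gave -0.06. TPEN/ONC gave 0.08 (limma adjusted p = 0.115), and it was called higher there without Ctrl replicate 3 (0.0448) and by voom (0.00104). Other listed genes share 15.7% of its exon bases, in part on the same strand (Gm15344, Gm25745), so some of its reads are uncertain.

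Sdf2l1, a partner of HSPA5 that helps to keep folding clients in solution, showed the widest change of the 10. The gene lies on chromosome 16 (17130138 to 17132383, minus strand). Its level was 1.73, 0.976 and 1.53 RPKM in Ctrl, 2.91, 2.63 and 2.51 RPKM in ONC and 1.31, 2.40 and 1.90 RPKM in TPEN. ONC was above both other groups in every library, while Ctrl and TPEN overlapped. These levels rest on 25 to 43 reads in Ctrl, 64 to 74 in ONC and 29 to 59 in TPEN, and whether these are separate molecules or include PCR copies is not given in the sources used here. The mean was 1.90 times as high in ONC as in Ctrl, a log2 fold change of 0.91 with a 95% interval from 0.39 to 1.44 (limma adjusted p = 0.0225). The call was lost without Ctrl replicate 2 (log2 fold change 0.69, limma adjusted p = 0.0659), ONC replicate 1 (0.0750) or ONC replicate 2 (0.0588). TPEN/ONC gave a log2 fold change of -0.54 (limma adjusted p = 0.217) and TPEN/Ctrl one of 0.38 (limma adjusted p = 0.346), and neither passed at this depth. Leaving out 1 library moved the first to between -0.73 (without TPEN replicate 2) and -0.31 (without TPEN replicate 1), and the second to between 0.15 (without Ctrl replicate 2) and 0.60 (without TPEN replicate 1). TPEN/Ctrl was also low without TPEN replicate 2, at 0.19.

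Dnajb9 encodes ERdj4, a co-chaperone that represses IRE1 and is a classic target of spliced XBP1. It lies on chromosome 12 (44205897 to 44210068, minus strand). Its level was 6.60, 7.10 and 6.52 RPKM in Ctrl, 5.81, 7.10 and 5.58 RPKM in ONC and 6.49, 6.06 and 6.77 RPKM in TPEN. All 3 groups overlapped. The log2 fold change in ONC/Ctrl was -0.13 (limma adjusted p = 0.356), with a 95% interval from -0.34 to 0.07. It was -0.24 without ONC replicate 2 (limma adjusted p = 0.0632) and -0.07 without ONC replicate 3. In the other comparisons it was 0.07 (TPEN/ONC) and -0.06 (TPEN/Ctrl), with limma adjusted p-values of 0.715 and 0.703. Leaving out 1 library moved TPEN/ONC to between 0.0030 (without ONC replicate 3) and 0.17 (without ONC replicate 2).

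Pdia4 encodes ERp72, a protein disulfide isomerase, on chromosome 6 (47796141 to 47813430, minus strand). It had 88.3, 90.0 and 79.2 RPKM in Ctrl, 90.4, 89.6 and 98.6 RPKM in ONC and 75.4, 85.3 and 79.6 RPKM in TPEN. Ctrl overlapped both other groups, and every TPEN library was below every ONC library. The log2 fold change in TPEN/ONC was -0.21 (limma adjusted p = 0.0701), which was called lower by voom (0.00390) and without Ctrl replicate 3 (0.0389). ONC/Ctrl gave 0.11 (limma adjusted p = 0.239), or 0.06 without Ctrl replicate 3 and 0.07 without ONC replicate 3, and TPEN/Ctrl -0.10 (limma adjusted p = 0.350).

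Herpud1 encodes a membrane protein that organizes the degradation of misfolded ER proteins, on chromosome 8 (94386438 to 94395377, plus strand). Its level was 2.89, 3.71 and 3.78 RPKM in Ctrl, 4.01, 4.33 and 4.50 RPKM in ONC and 3.77, 4.13 and 3.70 RPKM in TPEN. ONC lay above Ctrl in every library, and TPEN overlapped both. The log2 fold change in ONC/Ctrl was 0.31 with a 95% interval from 0.07 to 0.55 and did not pass after adjustment (limma adjusted p = 0.0766). Without Ctrl replicate 1, the lowest of the 9 libraries, it was 0.19 (limma adjusted p = 0.197).

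Manf encodes a secreted protein that is released from stressed cells and protects neurons, on chromosome 9 (106838312 to 106891979, minus strand). Its level was 13.6, 12.9 and 12.4 RPKM in Ctrl, 13.6, 13.2 and 15.3 RPKM in ONC and 14.6, 13.4 and 13.2 RPKM in TPEN. The groups overlapped in every pair. The log2 fold change was 0.11 in ONC/Ctrl (limma adjusted p = 0.282), and the 95% interval ended at 0.26. Without ONC replicate 3, the highest library, it was 0.05. Genes on both strands share 9.25% of its exon bases, Rbm15b among them on the same strand.

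Of the transcription factors themselves, Xbp1 lies on chromosome 11 (5520659 to 5525893, plus strand). Its level was 10.8, 11.5 and 10.2 RPKM in Ctrl, 12.2, 12.2 and 13.0 RPKM in ONC and 10.03, 11.35 and 9.956 RPKM in TPEN. Every ONC library was above all others, while Ctrl and TPEN overlapped. ONC/Ctrl gave a log2 fold change of 0.20 that did not pass (limma adjusted p = 0.0668), except without TPEN replicate 2 (0.0410). In TPEN/ONC the mean fell by 16.1%, with a log2 fold change of -0.25 and a limma adjusted p of 0.0488, just inside the threshold. Leaving out 1 library lost that call in 7 of 9 cases, all but Ctrl replicate 3 and TPEN replicate 2, with adjusted p-values from 0.0502 to 0.153. It was also lost after quantile normalization (0.0720) and with only the 6 libraries compared (0.0620).

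Atf6 encodes the membrane sensor whose cleaved part is a transcription factor, on chromosome 1 (170704674 to 170867771, minus strand). Its level was 7.57, 7.37 and 8.02 RPKM in Ctrl, 7.25, 7.49 and 7.32 RPKM in ONC and 7.01, 6.80 and 6.90 RPKM in TPEN. Every TPEN library was below all others, and Ctrl and ONC overlapped. The log2 fold change was -0.06 in ONC/Ctrl (limma adjusted p = 0.501), -0.09 in TPEN/ONC (0.337) and -0.15 in TPEN/Ctrl (0.0904). The last was called lower by voom (0.0277) and after quantile normalization (0.0425).

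**Figure D3:**
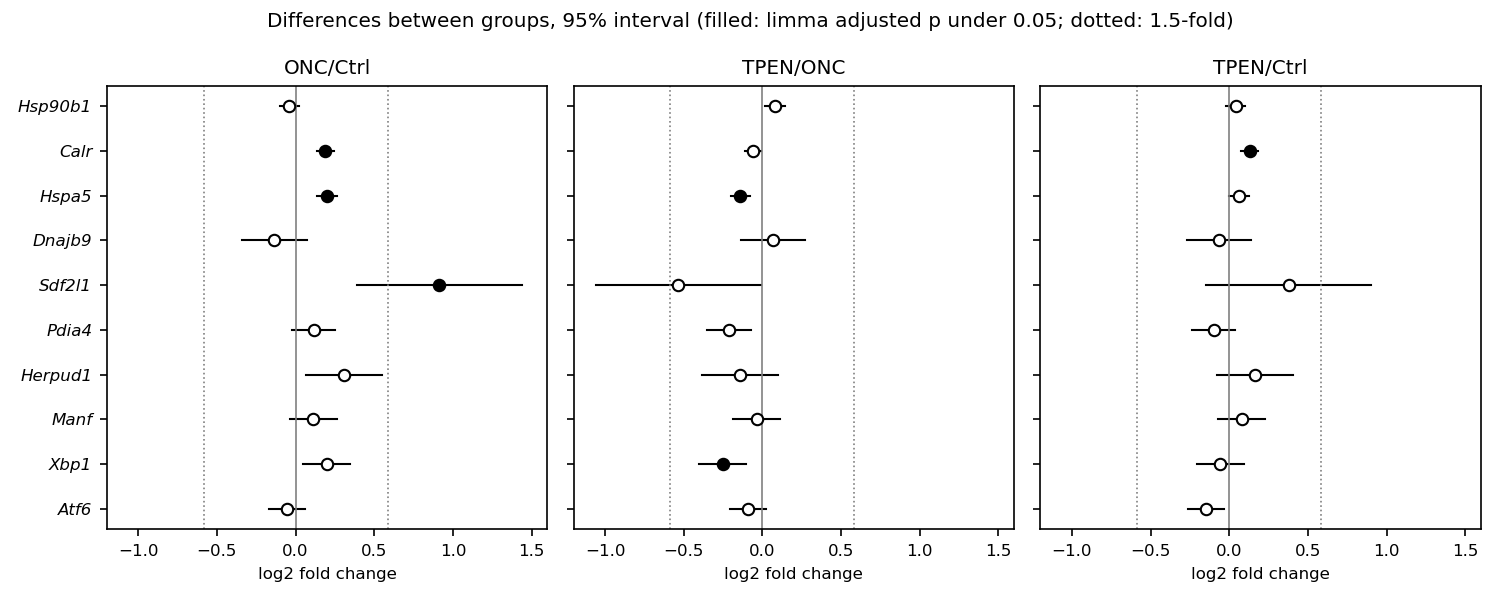
Log2 fold change of each gene (x axis) with its 95% interval in the 3 comparisons. Filled points passed a limma adjusted p under 0.05, and dotted lines mark 1.5-fold. In ONC/Ctrl the filled points are Calr, Hspa5 and Sdf2l1, in TPEN/ONC Hspa5 and Xbp1, and in TPEN/Ctrl Calr, and Sdf2l1 has the widest interval in each.

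Genes with and without a full element were both among those that rose. Of the 4 genes that hold one, Hspa5 and Calr rose in ONC/Ctrl, while Herpud1 and Hsp90b1 had log2 fold changes of 0.31 and -0.04 that did not pass. Sdf2l1, which rose, held CCACG alone, at 3 places. In the 7 other lists of ER genes, 8 of the 78 genes with a RefSeq window held a full element. One of them, Derl3, is not in the expression table. Of the other 7, Pdia6 rose in ONC/Ctrl (log2 fold change 0.21, limma adjusted p = 0.00450) and 6 were not called (Canx, Creld2, Dnajb11, Dnajc3, Ero1lb and Syvn1). The disulfide isomerase Pdia6 was also called higher in TPEN/Ctrl, as was the lectin chaperone Canx, and Creld2 was called lower in TPEN/ONC.

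The 7 lists (other ER chaperones, foldases, ER-associated degradation, UPR sensors and their enzymes, translocation, N-glycosylation, and export with retrieval) held 95 genes tested. In ONC/Ctrl 18 of the 95 rose (18.9%, against 11.7% of all genes) and 4 fell (4.21%, against 6.97%), with a median log2 fold change of 0.06, and none changed by 1.5-fold. After quantile normalization 11 rose and 6 fell, where 1262 of all 13566 genes were called higher and 1428 lower. In the main fit 1590 of all genes were called higher and 946 lower. Leaving out 1 library gave 10 to 17 that rose and 1 to 5 that fell, where 1258 to 1554 and 667 to 909 of all genes did. The number that rose was 12 or less without Ctrl replicate 1 or 2 or any 1 ONC library, and 1 fell without Ctrl replicate 3. In TPEN/ONC 1 rose and 7 fell (1.05% and 7.37%, against 3.24% and 4.14% of all genes, median -0.05), and leaving out 1 library gave 1 to 8 that fell, with 4 or fewer without any 1 ONC library, TPEN replicate 1 or TPEN replicate 3. In TPEN/Ctrl 5 rose and 3 fell (5.26% and 3.16%, against 8.36% and 5.01% of all genes, median 0.01), and 0 to 2 fell in limma fits that left out 1 library. Over such fits 279 to 660 of all 13566 genes fell in TPEN/ONC and 452 to 622 in TPEN/Ctrl.

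Among the ER chaperones, Creld2 fell in TPEN/ONC (log2 fold change -0.18, limma adjusted p = 0.0272), and Canx rose in TPEN/Ctrl (0.10, limma adjusted p = 0.0426). Neither was called in ONC/Ctrl. Of 15 foldases, 5 rose and 1 fell in ONC/Ctrl. Pdia6 rose by 0.21, the cyclophilin Ppib by 0.20 and Pdia3, the partner isomerase of calreticulin and calnexin, by 0.16 on the log2 scale, whereas Pdia5 fell by 0.27. Ppib also fell in TPEN/ONC (-0.16, limma adjusted p = 0.0254). Part of its exon bases overlap Snx22 on the other strand.

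Of 20 tested genes of ER-associated degradation, 3 rose and 1 fell in ONC/Ctrl. The lectin genes Os9 and Erlec1, whose products both hand misfolded glycoproteins to the degradation machinery, went in opposite directions. Os9 rose by 0.15 in ONC/Ctrl and fell by 0.22 in TPEN/ONC (limma adjusted p = 3.9e-04), whereas Erlec1 fell by 0.21 in ONC/Ctrl and rose by 0.29 in TPEN/ONC (limma adjusted p = 5.8e-04). Ube2j1, a ubiquitin-conjugating enzyme of the ER membrane, rose by 0.26 in ONC/Ctrl and by 0.27 in TPEN/Ctrl. Ubxn4 rose by 0.13 in ONC/Ctrl and fell by 0.15 in TPEN/ONC. Among the 7 sensors and enzymes, Rtcb, the ligase that joins the exons of spliced Xbp1 and of some tRNAs, rose by 0.21 in ONC/Ctrl (limma adjusted p = 0.00661). Atf6b, the relative of Atf6, fell by 0.22 in TPEN/Ctrl (limma adjusted p = 0.0332).

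For translocation into the ER, 4 of 22 genes rose in ONC/Ctrl, which were Ssr4 (log2 fold change 0.33) and the signal recognition particle genes Srp68 (0.22), Srp19 (0.17) and Srp14 (0.16). Srp19 was also higher in TPEN/Ctrl (0.23). Of 11 genes of N-glycosylation, 3 subunits of the oligosaccharyltransferase rose in ONC/Ctrl, Ddost (0.26), Rpn2 (0.15) and Rpn1 (0.15), and Ganab, a glucosidase, fell by 0.13. Rpn2 then fell by 0.23 in TPEN/ONC. Of 8 tested genes of export and retrieval, the cargo receptor Lman1 rose by 0.28 and the COPII coat gene Sec31a by 0.21 in ONC/Ctrl, while Kdelr1, a receptor that returns escaped ER chaperones, fell by 0.33 (limma adjusted p = 0.0316). Sec31a fell by 0.26 in TPEN/ONC, and Lman1 was higher in TPEN/Ctrl (0.19).

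**Figure D4:**
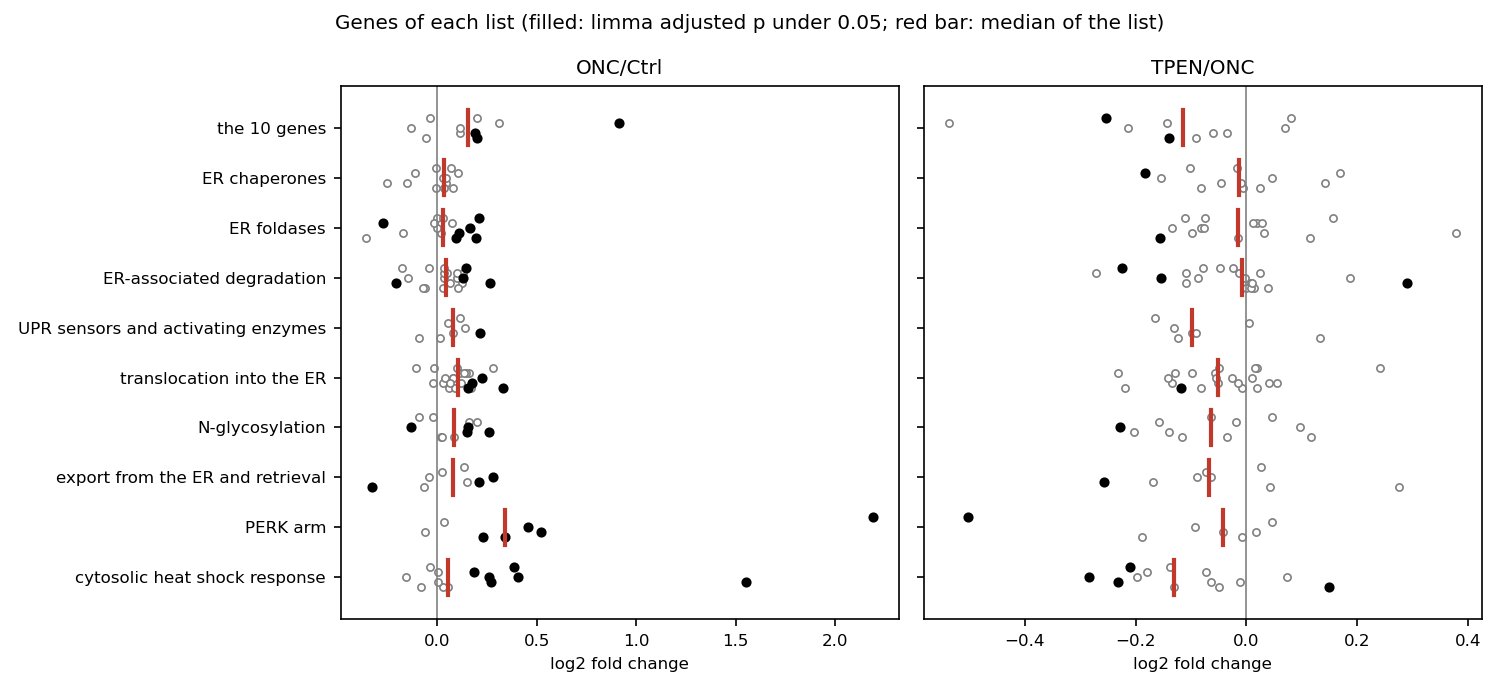
Log2 fold change (x axis) of every tested gene among the 10 genes, the 7 other ER lists, the PERK list and the heat shock list in ONC/Ctrl and TPEN/ONC, with filled points for a limma adjusted p under 0.05 and a red bar at the median of the list. The x axes of the panels differ. In ONC/Ctrl the 10 genes and the other ER lists lie within a narrow band apart from Sdf2l1 (0.91), while Nupr1 (2.19) and Bag3 (1.55) reach furthest of the genes drawn, which include no cell type markers.

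Lists of the PERK branch and of the cytosolic heat shock response were set beside the ER genes, and the same background of 11.7% of all genes higher in ONC/Ctrl and 8.36% in TPEN/Ctrl applies to their counts. Of 7 tested genes of the PERK list, 5 rose in ONC/Ctrl (median of the list 0.34) and 4 were higher in TPEN/Ctrl. Eif2ak3, which encodes PERK itself, was not called in any comparison (log2 fold change 0.03 in ONC/Ctrl), nor was Trib3 (-0.06 in ONC/Ctrl). The paper names other kinases of eIF2α beside PERK, and the list does not tell them apart. Nupr1, a stress-induced chromatin protein, rose most, with log2 fold changes of 2.19 in ONC/Ctrl and -0.50 in TPEN/ONC. Atf5 (0.52), Ddit3 (0.45), Ppp1r15a (0.34) and Atf4 (0.23) also rose in ONC/Ctrl. Nearby genes on the other strand share under 5% of the exon bases of Atf5 and Ddit3. Of 13 tested heat shock genes, 6 rose in ONC/Ctrl. Bag3, a co-chaperone of HSP70, rose by 1.55 and also rose in TPEN/Ctrl (1.49), while Hsp90ab1, the cytosolic counterpart of Hsp90b1, rose by 0.41 in ONC/Ctrl and fell by 0.28 in TPEN/ONC. Dnajb1 (0.39, then -0.21) and Hspa8 (0.27, then -0.23) had the same course. The differences between these lists and the 10 genes were not tested, and the lists were drawn up when results of these libraries were known.

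Markers of other cell types moved between the groups as well. The summed level of 13 listed microglia and macrophage markers was 4.78 to 5.67 RPKM in Ctrl, 61.8 to 64.8 RPKM in ONC and 27.7 to 28.3 RPKM in TPEN, and 12 of 12 tested were called higher in ONC/Ctrl. The 9 Müller glia markers summed to 585 to 601, 663 to 675 and 535 to 545 RPKM. Their members went both ways in ONC/Ctrl, with 3 called higher (Apoe, Vim and Clu), 3 called lower (Glul, Rlbp1 and Aqp4) and a median log2 fold change of -0.07. Sums over 10 listed RGC markers were 364 to 374, 373 to 395 and 290 to 304 RPKM, and those over 7 rod markers 18825 to 19639, 16549 to 16767 and 17756 to 17866 RPKM in the same order. The rod sum was thus far above the RGC sum in every library, although the cells are labelled RGCs. The RGC sum was mostly Nefl (mean 258 RPKM in Ctrl, 265 in ONC and 198 in TPEN), which was called lower in TPEN/ONC. In ONC/Ctrl Nefh was called lower (log2 fold change -0.34), whereas Nefm (0.28) and Sncg (0.23) were called higher. Thy1, the antigen used for the gate, was called higher in TPEN/ONC (0.40) and TPEN/Ctrl (0.58). Called lower were Nefl, Nefm and Sncg in TPEN/ONC, and Nefl and Nefh in TPEN/Ctrl. On opposite strands, Nefl shares 32.8% of its exon bases with Nefm, and Nefm 19.2% with Nefl, so some of their reads are uncertain. Bipolar (5 genes), amacrine (4 genes) and endothelial (2 genes) markers summed to between 10.8 and 44.1 RPKM in every library. No marker was at 0 in all libraries of a group, and Pou4f2 and Pou4f3, defining markers of RGCs, are not among the genes listed. Of the 10 RGC markers that are listed, only 7 were tested. Rbpms, Pou4f1 and Slc17a6 were below the filter of a mean of 0.5 RPKM, although the paper stained sorted cells for RBPMS as its RGC marker. The microglial sum was highest in ONC, as were the means of Hspa5, Calr, Sdf2l1, Xbp1, Herpud1, Pdia4 and Manf. Hsp90b1 had its highest mean in TPEN, and Dnajb9 and Atf6 had theirs in Ctrl. The RGC sum also reached its highest values in ONC, where its range overlapped that of Ctrl. The Müller glial sum was also highest in ONC, where Apoe had a mean of 268 RPKM, against 172 in Ctrl and 178 in TPEN. Glul and Rlbp1 of the same list were highest in Ctrl. The part of microglia, Müller glia and RGCs in the differences of the 10 genes was not tested. Library totals were 20077226 to 23109754 reads in Ctrl, 22967138 to 22986065 in ONC and 19946993 to 22217283 in TPEN.

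Likeness was measured as the distance between log2(RPKM + 0.1) profiles over the 9 libraries, each centred on its own mean, and is a description with no test. Nearest to Hspa5 were Psmd2 (distance 0.0452), a proteasome subunit, and Gadd45gip1, Nop56, Surf6 and Zc3h18, the last at 0.0806, beside a length of 0.258 for the profile of Hspa5 itself. Calr, the nearest of the 10 genes, came at rank 99 with a distance of 0.134. Nearest to Xbp1 were Gas5 (0.110) and Gtf2h2, followed at rank 3 by Pdia4 (0.141), and then by Pccb and Mybbp1a (0.151), beside a length of 0.386. Small differences and low spread between libraries both make such distances short.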

How the data were processed

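The authors trimmed reads with Trimmomatic 0.36, mapped them to GRCm38 (mm10) and deposited RPKM for 15228 genes. The counting program and its use of strand are not given in the sources used here. The deposited log2 fold changes and p-values of the authors' own comparisons were not used. RPKM times exon length gave whole reads (tolerance 0.001 read), which supplied library totals. The floor of 3 reads (0.130 to 0.150 RPM) covers counting error only, while 95% intervals are those of limma and rest on the spread between libraries. The kit adds molecular identifiers to cDNA, and collapsing of duplicates before counting is not given in the sources used here. Groups were compared with limma 3.58.1 (R 4.3.3, variance trend, 1 coefficient per group) on log2(RPKM + 0.1) for 13566 genes, with Benjamini-Hochberg adjustment. The pseudocount understates fold changes of low genes. The code was tested on simulated data. Promoters were scanned in Python 3.11.15. The 10 genes and all lists (7 of ER genes, PERK, heat shock, 7 of cell markers) were chosen with earlier results of these data known. Named were all 10 genes, up to 4 called genes with the largest changes per list, and the 5 genes nearest to Hspa5 and Xbp1. The main fit had no normalization between libraries beyond that in RPKM. Other normalization, filters, pseudocount, voom, treat and left-out libraries were tried. For voom, library totals were multiplied by factors from a trimmed mean of log ratios between libraries, so it differs from the main fit in normalization too. A planned comparison of protein ends was not run here.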

Additional observations from a re-analysis of the deposited data

How the results depend on the processing

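Over 17 alternatives, the 30 log2 fold changes of the 10 genes kept direction and side of the threshold in 477 of 510 cases, lost a call in 24 and gained one in 8. Only the 3 calls in ONC/Ctrl, 2 in TPEN/ONC and 1 in TPEN/Ctrl could be lost, so most cases concern values not called in the main fit. Of the 24 losses, 6 came with treat. Other filters, the replicate block and treat leave the fold changes as they were, so direction could not change there. Manf in TPEN/ONC reversed, to 0.0285 without ONC replicate 3 (-0.0801 to 0.0285 over the 9 fits that each left out 1 library), and was not called in any of these. A test against a fold change of 1.5 (limma's treat) left 0 calls in either direction for the 10 genes and for the 95 other ER genes in all 3 comparisons, so no change was shown to exceed that size. For the 10 genes, voom gave 3 higher and 1 lower in ONC/Ctrl, 1 higher and 3 lower in TPEN/ONC, and 1 higher and 1 lower in TPEN/Ctrl. In either direction voom called 24.1%, 12.1% and 17.6% of all genes in these comparisons, against 18.7%, 7.39% and 13.4% in the main fit. Quantile normalization gave 1 lower in TPEN/ONC and 1 lower in TPEN/Ctrl, and the fit on the 6 libraries compared gave 1 lower in TPEN/ONC. Of all genes, quantile normalization called 19.8% in ONC/Ctrl, 7.31% in TPEN/ONC and 12.8% in TPEN/Ctrl in either direction. It called 457 of 13566 genes lower in TPEN/ONC and 830 lower in TPEN/Ctrl. Fits on the 6 libraries compared called 17%, 6.71% and 10.5% in either direction, with 535 genes lower in TPEN/ONC. Leaving out 1 library gave 2 to 4 higher in ONC/Ctrl, 0 to 1 higher and 0 to 3 lower in TPEN/ONC, and 1 higher in TPEN/Ctrl. Those fits called 14.2% to 18.2% of all genes in ONC/Ctrl, 3.95% to 8.48% in TPEN/ONC and 9.79% to 12.5% in TPEN/Ctrl in either direction. Called higher were 1258 to 1554 genes in ONC/Ctrl, 247 to 491 in TPEN/ONC and 867 to 1067 in TPEN/Ctrl. In TPEN/ONC, 279 to 660 genes were called lower. For the other ER genes, quantile normalization gave 11 higher in ONC/Ctrl, 4 lower in TPEN/ONC and 3 higher in TPEN/Ctrl, voom gave 2 higher in TPEN/ONC, and the 6 libraries compared gave 3 higher and 0 lower in TPEN/Ctrl. Leaving out 1 library gave 10 to 17 higher and 1 to 5 lower in ONC/Ctrl, 1 to 8 lower in TPEN/ONC, and 3 to 5 higher and 0 to 2 lower in TPEN/Ctrl. Causes were not tested, and fits with fewer libraries have fewer degrees of freedom. Counting only the 250 bases before the start left 4 genes with a full element.

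Libraries with the same replicate number did not deviate together (correlations of -0.06 to 0.03 over 9 pairs, and -0.04 to 0.05 over 18 other pairs). No pairing by number was seen in this way, and what the numbers stand for is not given in the sources used here. With the replicate number as a block, 0 of the 10 genes were lower in TPEN/ONC (Hspa5 adjusted p = 0.0521, Xbp1 0.0709, limma) and Sdf2l1 in ONC/Ctrl had 0.0532. The other ER genes with the block were 11 higher in ONC/Ctrl and 3 higher and 0 lower in TPEN/Ctrl. Of all genes, fits with the block called 16.4% in ONC/Ctrl, 5.17% in TPEN/ONC and 10.8% in TPEN/Ctrl in either direction. They called 1439 of 13566 genes higher in ONC/Ctrl, 397 lower in TPEN/ONC, and 947 higher and 517 lower in TPEN/Ctrl. Depth limits Sdf2l1 most, at 25 to 74 reads a library.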
